A study of Mus musculus with 8 samples.

Results

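Coenzyme Q (ubiquinone) biosynthesis was described here through 10 genes, Pdss1, Pdss2, Coq2, Coq3, Coq4, Coq5, Coq6, Coq7, Coq8a and Coq9, taken by name from the 49315 genes listed in each library. The cells were immortalized fibroblasts from mouse embryos (MEFs), and RNA of 2 genotypes was sequenced in 4 libraries each. One was labelled Opa1-/- and the other Opa1-/- + OPA1, the same knockout cells with OPA1 put back. Both groups therefore carry the Opa1 deletion, and neither is a wild-type line. No treatment was given. The labels give no clone number and no origin of the added OPA1, and the title ties the comparison to genes of susceptibility to ferroptosis, a cell death driven by lipid peroxidation.

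Coenzyme Q is a lipid of the mitochondrial inner membrane, the membrane that OPA1 fuses and folds into cristae. It is built from a long isoprenoid tail and an aromatic head group. A prenyl diphosphate synthase made of PDSS1 and PDSS2 makes the tail and COQ2 joins it to the head group. The ring is then modified by enzymes that assemble with COQ4 and COQ9 into a complex on the matrix side of the membrane. The finished lipid carries electrons to complex III, and in its reduced form it also stops lipid peroxidation, which is why its synthesis is of interest in ferroptosis.

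Values are the authors' TPM (a transcript level per length, each library summing to 1000000), scaled between libraries by a trimmed mean of log ratios and given as mean ± SD with n = 4 libraries per group. Differences are Opa1-/- minus Opa1-/- + OPA1 on the log2(scaled TPM + 1) scale, which understates the change of low genes. The test was limma-trend over 14272 genes, with Benjamini-Hochberg adjusted p-values and a threshold of 0.05. No label states whether separate cultures were used, so the p-values rest on a spread between libraries that may be technical. In RNA from whole cultures, fewer cells of a type and less RNA per cell cannot be told apart.

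The depth recovered from the TPM steps was 52.9 M to 57.7 M reads (M, 1000000) per library. Opa1 itself was at 14.8, 14.7, 13.7 and 12.5 TPM in Opa1-/- libraries 1 to 4 and at 15.6, 14.6, 14.6 and 14.5 TPM in the reconstituted libraries (difference -0.09, adjusted p = 0.299 in limma-trend), so this total does not check the labels. Of 8 fibroblast markers, 7 reached 1 TPM and Pdgfra did not. Their summed level was 2602 to 2930 TPM in the Opa1-/- libraries and 2997 to 3063 TPM in the reconstituted libraries. Within the list Col1a1 (-0.52), Col1a2 (-0.56) and Pdgfrb (-0.45) fell in the Opa1-/- libraries and Col3a1 (0.42) rose, while Vim, Fn1 and Thy1 did not pass. All 3 endothelial and all 3 muscle markers stayed under 1 TPM, with Myog at 0. Of the leukocyte markers only Cd68 and of the pluripotent ones only Nanog reached 1 TPM. Epithelial markers reached 1 TPM in 3 of 4 cases (all but Epcam), mostly through Krt18. They summed to 175 to 212 against 144 to 207 TPM, and Krt18 did not pass. Cdh1 was higher in the Opa1-/- libraries (12.9 ± 1.79 against 8.10 ± 0.904 TPM, limma-trend adjusted p = 0.00218), as was Krt8 (4.60 ± 0.674 against 2.21 ± 0.257 TPM, adjusted p = 0.000569). Epcam, too low to be tested, was at 0.416 ± 0.128 against 0.0976 ± 0.0375 TPM, without overlap. The part of these fibroblast and epithelial markers in the results below was not tested. Opa1-/- library 4 stood apart from its group. The chi-square per degree of freedom of its recovered reads was 33.4 to 47.4 against the other 3. Those were at 7.85 to 24.3 among themselves. Reconstituted library 3 also stood apart from its group, at lower values. It was at 15.2 to 25.98 against the other 3 reconstituted libraries, which were at 4.73 to 7.94 among themselves.

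Of the 10 genes, 9 passed the filter of 1 TPM in at least 4 libraries and were tested. Coq2, Coq7, Coq5 and Pdss2 rose in the Opa1-/- libraries, none fell, and Coq9, Coq4, Coq3, Coq6 and Pdss1 did not pass. Over all genes tested, 16.2% were called higher and 16.9% lower, 33.0% in all. The groups did not overlap for the same 4 genes, all higher. Over all genes tested this held for 17.2% higher and 19.0% lower, 36.2% in all. The median difference over the 9 genes was 0.18, beside -0.00 over all genes tested. The count was 2 (Coq2 and Coq7) on the deposited TPM without scaling, without both libraries numbered 3, without reconstituted library 1 and without reconstituted library 2. Without Opa1-/- library 4 the same 4 genes were called higher and Pdss1 lower. The ratios of the group means of the called genes ran from 1.15 for Pdss2 to 1.36 for Coq2.

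The sequences upstream of the start site are shown for the called genes that have an entry in the RefSeq promoter table (GRCm38.p6), since these genes moved in the same direction; Coq5 has no entry. Each runs 5′ to 3′ on the gene's strand over the 250 bases before the RefSeq start. For Coq2 the last 28 of these, which GENCODE annotates as exon, are left out. GENCODE places the 5′ end of Coq2 farther upstream, at 100675140. The Coq2 stretch shown therefore lies inside the gene as annotated there, not before it. Capitals mark matches, on either strand, to any of the motifs searched.
Coq2, chr5:100674285-100674506, minus strand: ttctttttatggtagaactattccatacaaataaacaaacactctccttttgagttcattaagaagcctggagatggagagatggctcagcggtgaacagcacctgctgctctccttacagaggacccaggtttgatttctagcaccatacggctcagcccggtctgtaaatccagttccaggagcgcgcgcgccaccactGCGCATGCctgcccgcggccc
Coq7, chr7:118533357-118533606, minus strand: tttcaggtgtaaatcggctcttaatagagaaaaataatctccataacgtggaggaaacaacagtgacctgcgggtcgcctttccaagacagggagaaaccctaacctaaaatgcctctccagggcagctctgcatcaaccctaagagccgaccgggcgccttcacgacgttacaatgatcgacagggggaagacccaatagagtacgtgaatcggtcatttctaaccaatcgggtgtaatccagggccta
Pdss2, chr10:43221236-43221485, plus strand: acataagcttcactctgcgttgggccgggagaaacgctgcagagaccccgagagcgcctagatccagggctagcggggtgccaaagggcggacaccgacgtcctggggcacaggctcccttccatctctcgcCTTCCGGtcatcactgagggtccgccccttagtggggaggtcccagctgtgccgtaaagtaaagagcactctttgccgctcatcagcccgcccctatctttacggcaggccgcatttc
The table held 11 windows of 300 bases (250 before and 50 after the start) for 9 of the 10 genes, among 32851 in all. The motifs were NRF1 (its full palindrome and the core GCATGCGC within it), the ETS motif CCGGAAG, YY1 (a longer form and the core AAGATGGC within it), the C/EBP-ATF motif TGATGCAAT with the overlapping TTGCATCA, and the E-box CACGTG. The Coq2 window held the NRF1 core starting at base -49, a match that 2.71% of all windows have. The Pdss2 window held the ETS motif at -118, as do 8.86% of all windows, and the Coq7 window held none of these letters. Among the other genes, Pdss1 and Coq6 had ETS matches after the start site and Coq4 had an E-box at -56. The windows of Coq6 and Coq8a, like that of Coq2, lie inside the gene as GENCODE places it. Coq9 had the longer YY1 motif at base 7 after the start, found in 0.852% of all windows. No motif was shared by the called genes shown, and a match is a description of the letters only.

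**Figure D1:**
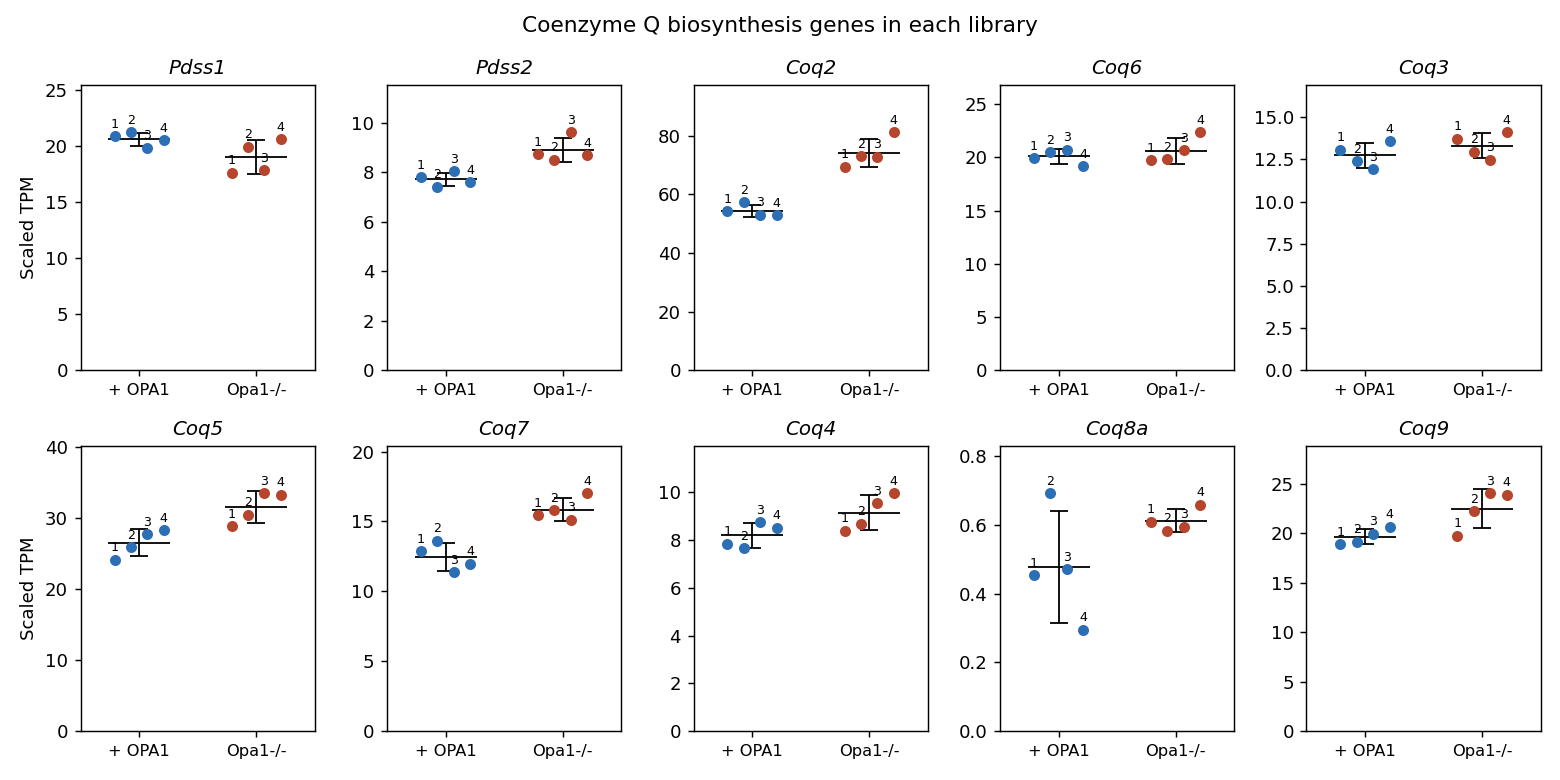
Scaled TPM (y axis, from 0) of the 10 coenzyme Q genes in each library; points are libraries with their label number, bars are mean ± SD of 4 libraries. The groups do not overlap for Pdss2, Coq2, Coq5 and Coq7, and Coq8a stays below 1 TPM in every library.

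The first step is tail synthesis. Pdss1 (ENSMUSG00000026784, GRCm38 chromosome 2, 22895522 to 22940266, plus strand), the catalytic subunit of the prenyl diphosphate synthase, was at 17.7, 19.99, 17.9 and 20.6 TPM in Opa1-/- libraries 1 to 4. It was at 20.9, 21.2, 19.9 and 20.5 TPM in the reconstituted libraries, and the groups overlapped. The difference was -0.11 (SE 0.06, 95% confidence interval -0.24 to 0.02, limma-trend adjusted p = 0.167), and it passed only without Opa1-/- library 4 (-0.15, adjusted p = 0.0498). Of its exon bases, 194 (4.57%) lie over exons of Abi1 on the opposite strand, which was at 72.4 ± 3.46 against 76.2 ± 2.34 TPM. Another 207 (4.87%) lie over the pseudogene A130006I12Rik. Counting by strand is not given, so reads there cannot be separated, and this bears on the ratio of Pdss2 to Pdss1 below too.

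Pdss2 (ENSMUSG00000038240, chromosome 10, 43221486 to 43464882, plus strand), the other subunit of that enzyme, was at 8.74, 8.52, 9.62 and 8.71 TPM against 7.82, 7.42, 8.04 and 7.62 TPM. Every Opa1-/- library was above every reconstituted one, and library 3 was the highest in both groups. Pdss2 rose by 0.18 (SE 0.06, interval 0.06 to 0.31, limma-trend adjusted p = 0.0334). That call held in 10 of 21 alternatives, with adjusted p = 0.175 on the deposited TPM, 0.0936 without both libraries numbered 3 and 0.0929 with chromosome medians removed.

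The ratio of Pdss2 to Pdss1 within a library does not depend on the scaling between libraries. It was 0.495, 0.427, 0.537 and 0.422 in Opa1-/- libraries 1 to 4 and 0.374, 0.349, 0.405 and 0.371 in the reconstituted libraries, with no overlap. The exact two-sided permutation p was 0.0286, the smallest that 4 against 4 libraries allow, and 0.0857 after Benjamini-Hochberg adjustment over the 3 ratios computed, which were chosen after the values were seen. The adjusted value could not have been lower given the other 2 ratios, so missing the threshold says nothing about stability. As the values were seen first, the unadjusted p only restates the lack of overlap. The adjustment does not cover ratios that were passed over. The ratio was higher in the Opa1-/- library of 4 of 4 same-numbered pairs, and an exact permutation within those pairs gave p = 0.125, the smallest that 4 pairs allow.

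Coq2 (ENSMUSG00000029319, chromosome 5, 100654723 to 100675140, minus strand) encodes the prenyltransferase that attaches the tail to 4-hydroxybenzoate. It was the most abundant of the 10 genes in every library and had the largest difference of the 9 tested. Its levels were 69.5, 73.0, 72.9 and 81.1 TPM in Opa1-/- libraries 1 to 4 and 54.3, 57.4, 53.0 and 52.9 TPM in the reconstituted libraries. The lowest Opa1-/- library lay above the highest reconstituted one, and Opa1-/- library 4 was the highest of all. The means were 74.1 ± 4.94 against 54.4 ± 2.07 TPM, a ratio of 1.36. The difference was 0.44 (SE 0.05, interval 0.32 to 0.56, limma-trend adjusted p = 0.000384), and in each of 21 alternatives it passed, between 0.38 and 0.47. Coq2 made up 33.7% to 35.01% of the summed TPM of the 10 genes in the Opa1-/- libraries and 28.8% to 30.9% in the reconstituted libraries.

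Coq6 and Coq7 encode ring hydroxylases. Coq6 (ENSMUSG00000021235, chromosome 12, 84361657 to 84373796, plus strand), a flavin-dependent hydroxylase that receives electrons from ferredoxin, was at 19.7, 19.8, 20.7 and 22.3 TPM against 19.95, 20.5, 20.7 and 19.2 TPM. The groups overlapped widely, with a difference of 0.04 (interval -0.08 to 0.15, limma-trend adjusted p = 0.634).

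Coq7 (ENSMUSG00000030652, chromosome 7, 118509659 to 118533356, minus strand), the di-iron hydroxylase of a late step, was at 15.5, 15.8, 15.1 and 17.0 TPM in Opa1-/- libraries 1 to 4. In the reconstituted libraries it was at 12.9, 13.6, 11.4 and 11.98 TPM. The groups did not overlap, and libraries 1 and 2 were above 3 and 4 in the reconstituted group. The means were 15.8 ± 0.826 against 12.5 ± 0.989 TPM, a ratio of 1.27, and the difference was 0.33 (SE 0.06, interval 0.18 to 0.47, limma-trend adjusted p = 0.00475). Coq7 passed in all 21 alternatives, from 0.21 with chromosome medians removed to 0.39 with the trend of each library with exon length and GC content removed.

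Coq3 and Coq5 encode methyltransferases. Coq3 (ENSMUSG00000028247, chromosome 4, 21879673 to 21912162, plus strand), which methylates ring oxygens, was at 13.7, 13.0, 12.5 and 14.1 TPM against 13.1, 12.4, 11.9 and 13.6 TPM. The groups overlapped, yet the order of the library numbers was the same in both, and in each same-numbered pair the Opa1-/- library was higher. The difference was 0.06 (interval -0.07 to 0.19, limma-trend adjusted p = 0.474; 0.340 with the replicate number as a block).

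Coq5 (ENSMUSG00000041733, chromosome 5, 115279666 to 115296972, plus strand), which methylates a ring carbon, was at 28.8, 30.4, 33.4 and 33.3 TPM against 24.1, 25.8, 27.7 and 28.2 TPM. Libraries 3 and 4 were above 1 and 2 in both groups. The lowest Opa1-/- value stood just above the highest reconstituted one, and the same-numbered pairs differed by ratios of 1.18 to 1.21. The difference was 0.24 (SE 0.07, interval 0.09 to 0.39, limma-trend adjusted p = 0.0215; 0.00568 with the replicate number as a block). The call was lost on the deposited TPM (0.0809), with chromosome medians removed (0.0847), without both libraries numbered 3 (0.0709) and without reconstituted library 1 (0.0593) or 2 (0.0581).

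Coq4 and Coq9 encode further proteins of the complex. Coq4 (ENSMUSG00000026798, chromosome 2, 29787493 to 29797935, plus strand) was at 8.40, 8.69, 9.54 and 9.96 TPM against 7.85, 7.66, 8.77 and 8.52 TPM. The groups overlapped and the difference of 0.14 did not pass (interval -0.02 to 0.30, limma-trend adjusted p = 0.152). Of its 3399 exon bases, 921 (27.1%) lie over exons of Trub2 on the opposite strand, and as counting by strand is not given, reads there cannot be separated. Trub2 was at 27.6 ± 3.50 against 26.5 ± 1.26 TPM (adjusted p = 0.701).

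Coq9 (ENSMUSG00000031782, chromosome 8, 94838321 to 94854895, plus strand), a lipid-binding partner of COQ7, was at 19.8, 22.2, 24.0 and 23.9 TPM against 18.9, 19.1, 19.9 and 20.7 TPM. Opa1-/- library 1 lay within the reconstituted range and the other 3 lay above it. The difference was 0.18 (SE 0.07, interval 0.03 to 0.33, limma-trend adjusted p = 0.0636). With the replicate number as a block, adjusted p was 0.0342 at the same difference, and without Opa1-/- library 1 it was 0.0128. Of its exon bases, 38 lie over exons of Ciapin1 on the opposite strand, which was at 28.4 ± 1.11 against 34.2 ± 0.573 TPM. The ratio of Coq7 to Coq9 was 0.629 to 0.782 in the Opa1-/- libraries and 0.570 to 0.712 in the reconstituted libraries (exact permutation p = 0.171, two-sided, 0.257 adjusted over the 3 ratios).

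Coq8a (ENSMUSG00000026489, chromosome 1, 180165238 to 180199602, minus strand) encodes an atypical kinase-like ATPase that promotes coenzyme Q synthesis. It was at 0.610, 0.583, 0.595 and 0.659 TPM in Opa1-/- libraries 1 to 4 and at 0.454, 0.693, 0.472 and 0.295 TPM in the reconstituted libraries, where the spread was wider. These levels rest on 29 to 68 recovered reads per library and did not pass the filter. Of its exon bases, 366 (6.91%) lie over exons of Cdc42bpa on the opposite strand, which was at 15.7 ± 1.34 against 18.0 ± 0.758 TPM, far above Coq8a. Reads there cannot be separated, and this bears on the ratio to Coq8b below too. With no filter the difference was 0.13 with limma-trend adjusted p = 0.413. Its paralog Coq8b, the related ATPase, was between 4.15 and 10.6 times as abundant as Coq8a across the libraries. Coq8b was at 4.92, 4.90, 4.48 and 4.04 TPM against 3.01, 2.88, 3.05 and 3.13 TPM, with no overlap. Coq8b rose by 0.47 (SE 0.07, limma-trend adjusted p = 0.00155), and its difference over the alternatives was 0.36 to 0.59. The ratio of Coq8b to Coq8a overlapped between the groups (exact permutation p = 0.629, two-sided and also after adjustment over the 3 ratios).

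In order of mean level over all libraries, Coq2 (64.3 TPM) came first and Coq5 (29.0 TPM) next. They were followed by Coq9 (21.1), Coq6 (20.4), Pdss1 (19.8), Coq7 (14.2), Coq3 (13.0), Coq4 (8.67), Pdss2 (8.31) and Coq8a (0.545 TPM). Coq9 and Coq6, Coq6 and Pdss1, and Coq4 and Pdss2 overlapped in both groups. Coq7 and Coq3 overlapped in the reconstituted libraries, where the mean of Coq7 was lower (12.5 against 12.7 TPM), but not in the Opa1-/- libraries. The summed level of the 10 genes was 202 to 232 TPM in the Opa1-/- libraries and 180.2 to 186 TPM in the reconstituted libraries, and Coq2 makes up the largest share of it.

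**Figure D2:**
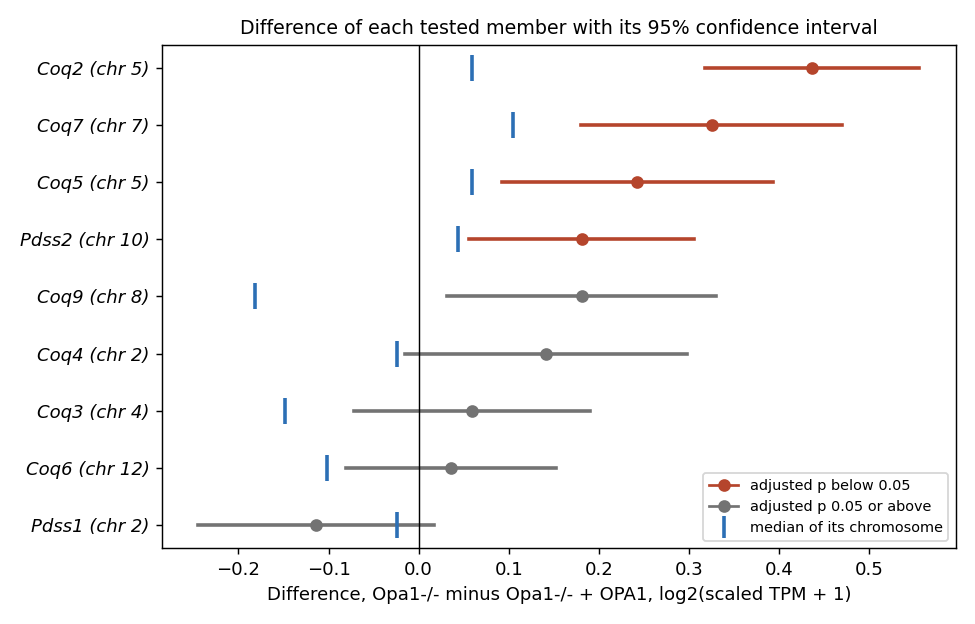
Difference of each tested gene (points, log2 scale) with its 95% confidence interval, and the median difference of genes on the same chromosome (blue ticks). Coq2 and Coq7 lie farthest to the right, at 0.44 and 0.33, and the ticks of Coq9, Coq3 and Coq6 lie farthest below 0.

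The median difference varied from chromosome to chromosome, which was not tested, so each gene was also read against the median of its own chromosome. That median was -0.18 on chromosome 8, which carries Coq9, -0.15 on chromosome 4 (Coq3) and -0.10 on chromosome 12 (Coq6). On chromosome 7 (Coq7) it was 0.10 and on chromosome 5 (Coq2 and Coq5) 0.06. With chromosome medians removed, Coq2, Coq7, Coq9 and Coq3 passed, at 0.38, 0.21, 0.37 and 0.22 (limma-trend adjusted p = 0.00192, 0.0308, 0.00439 and 0.0292). Coq5 and Pdss2 no longer did. The count of called genes was thus 4 by either reading, but only Coq2 and Coq7 were in both. With chromosome medians removed, 2183 of all 14272 genes tested were called higher and 1603 lower. Whether copy number differs between the lines was not tested.

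**Figure D3:**
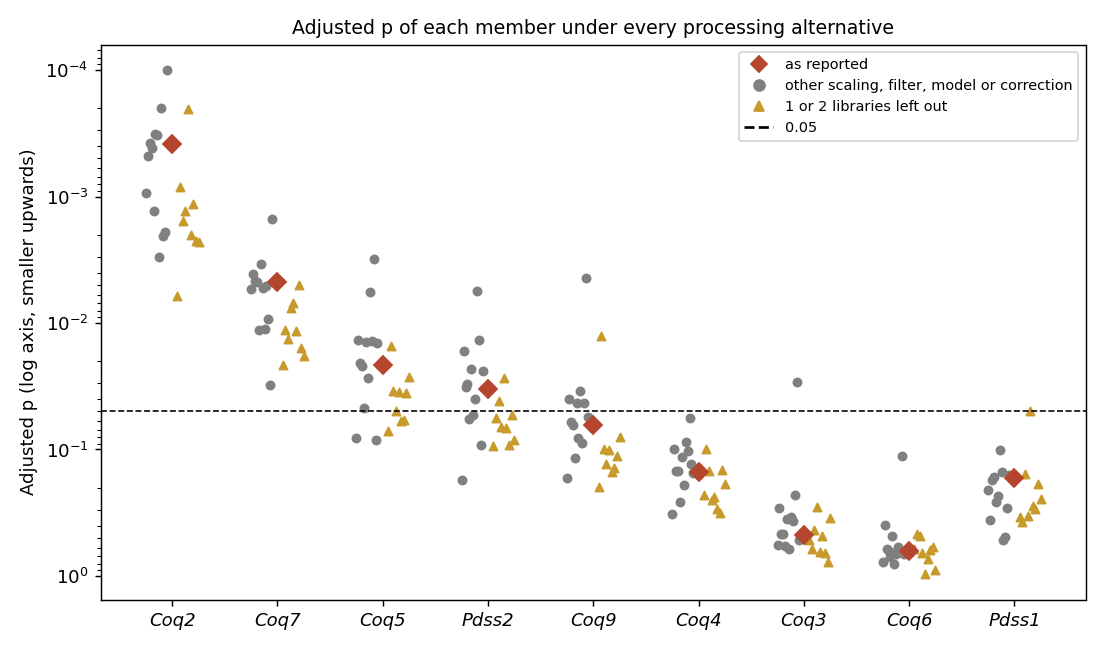
Adjusted p (log axis, smaller upwards) of each tested gene as reported (diamonds), under other scalings, filters, models or corrections (circles) and with 1 or 2 libraries left out (triangles). All points of Coq2 and Coq7 lie above the dashed line at 0.05, while those of Coq5, Pdss2 and Coq9 lie on both sides. Coq3 and Pdss1 each have 1 point above the line.

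Genes that act beside these enzymes were read from lists chosen from textbook knowledge of the pathway. Among 11 other coenzyme Q genes and cofactors, 3 rose, none fell and 8 did not pass, with a median of 0.09, beside 16.2% of all genes called higher. Besides Coq8b, these were Coq10a, a coenzyme Q-binding protein, at 8.25 ± 0.451 against 6.77 ± 0.709 TPM (0.25, limma-trend adjusted p = 0.0316), and Fdx1, a ferredoxin, at 22.1 ± 0.726 against 19.2 ± 0.729 TPM (0.20, adjusted p = 0.00925). The Coq10a call was lost in 11 alternatives, among them the replicate number as a block (0.0522). Fdx1 was at 0.11 with adjusted p = 0.129 with chromosome medians removed. Of the 5 UbiB family genes, the kinase-like family of COQ8A and COQ8B, 4 were tested. The 2 that rose were Coq8b and Adck1, beside the same 16.2% of all genes. Adck1 measured 16.0 ± 1.00 TPM in the Opa1-/- and 13.6 ± 0.862 TPM in the reconstituted libraries (0.22, adjusted p = 0.0227). Its adjusted p was 0.108 on the deposited TPM, 0.0655 without reconstituted library 1, 0.0617 without reconstituted library 2 and 0.0867 without both libraries numbered 3.

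The isoprenoid pathway supplies the tail. Of 9 genes from acetyl-CoA to the prenyl diphosphates, 7 fell, Ggps1 rose and Mvk did not pass, with a median of -0.39, beside 16.9% of all genes called lower. Idi1, which isomerises the isoprene unit, was at 44.8, 46.9, 57.1 and 32.9 TPM against 71.4, 69.3, 68.3 and 71.2 TPM, with no overlap and a wide spread in the Opa1-/- libraries (-0.64, limma-trend adjusted p = 0.00648). Mvd, the decarboxylase before it, was at 63.7, 61.9, 81.5 and 83.3 TPM against 104, 106, 101 and 105 TPM. Libraries 1 and 2 were thus lower than 3 and 4 among the Opa1-/- libraries. Fdps, which makes farnesyl diphosphate, fell by 0.48 (adjusted p = 0.00525) and Hmgcs1, an early enzyme, by 0.46 (adjusted p = 0.000562). Ggps1, which makes geranylgeranyl diphosphate and is named as the exception after its value was seen, was at 25.98 ± 0.958 against 22.5 ± 1.15 TPM (0.20, adjusted p = 0.0134). Of 3 other genes that draw on the same branch, Fdft1, squalene synthase, fell by 0.40 (adjusted p = 0.00823), at -0.22 and adjusted p = 0.111 with chromosome medians removed. Dhdds and Nus1, the subunits of the dolichol-forming enzyme, did not pass.

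**Figure D4:**
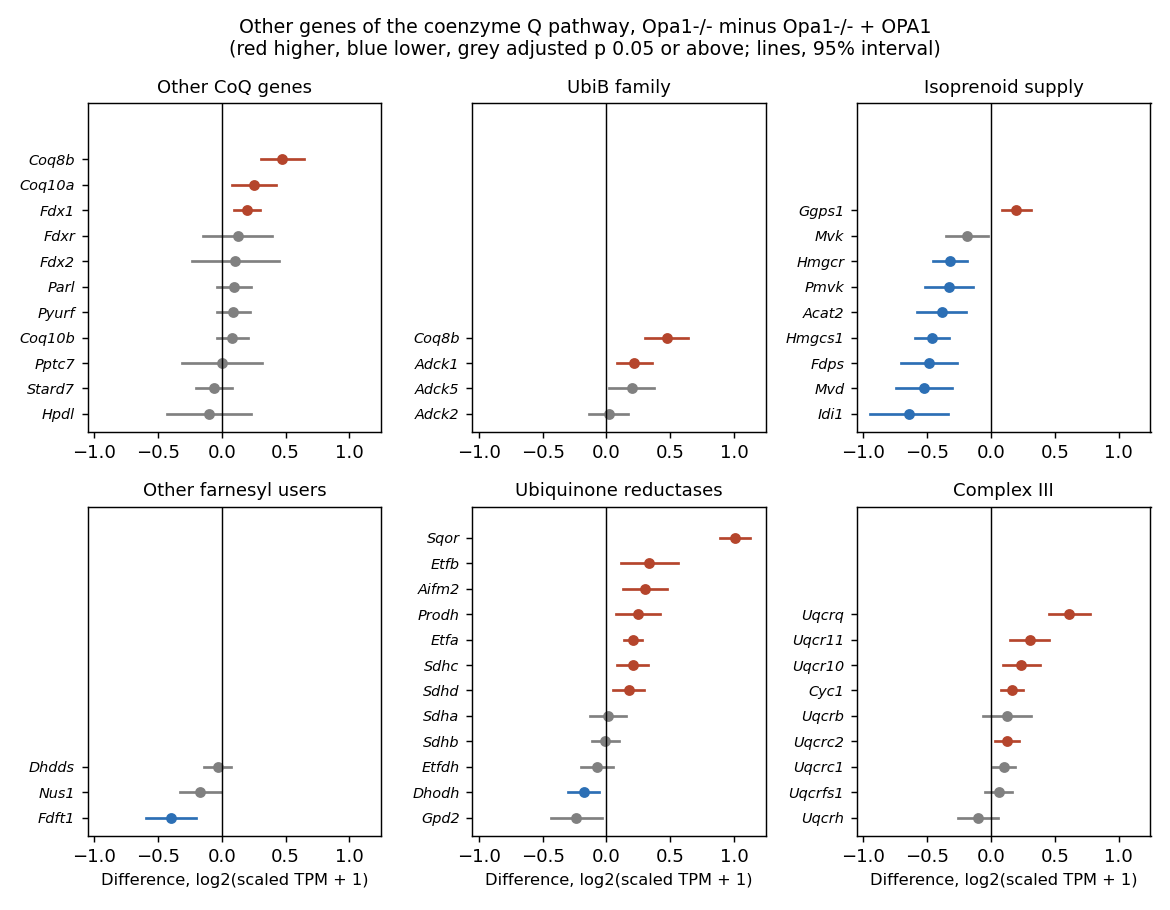
Differences (points, log2 scale) with 95% confidence intervals for the tested genes of 6 pathway lists; red is higher and blue lower in Opa1-/- libraries at adjusted p below 0.05. In isoprenoid supply 7 of 9 genes are blue, and Sqor, at 1.009, lies farthest to the right.

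Of 12 tested genes that serve electron transfer to coenzyme Q outside complex I, 7 were higher and 1 lower. The median was 0.19, beside 16.2% and 16.9% of all genes. Among the 7 were Etfa and Etfb, subunits of a flavoprotein that does not reduce coenzyme Q itself. Etfdh, which passes its electrons to coenzyme Q, did not pass (-0.08, limma-trend adjusted p = 0.330). Chdh, choline dehydrogenase, was below 1 TPM and not tested. Sqor, which oxidises sulfide with coenzyme Q as acceptor, was at 13.6, 14.7, 13.8 and 14.99 TPM against 6.35, 6.86, 6.65 and 6.47 TPM, and the groups were far apart (1.009, SE 0.05, limma-trend adjusted p = 7.56e-06). Etfb, an electron transfer flavoprotein subunit, rose by 0.34 (adjusted p = 0.0280), and this was lost in 6 alternatives, with 0.118 without both libraries numbered 3 and 0.0616, 0.0798 and 0.0507 without reconstituted library 1, 3 or 4. Aifm2, encoding FSP1, which reduces coenzyme Q outside mitochondria, rose from 10.2 ± 1.07 TPM in the reconstituted to 12.7 ± 0.681 TPM in the Opa1-/- libraries (0.30, adjusted p = 0.0149). Without both libraries numbered 3 its adjusted p was 0.0600. Prodh, proline dehydrogenase, rose by 0.25 (adjusted p = 0.0342; 0.0574 with the replicate number as a block). Of its 9 lost calls, 5 came from leaving out 1 library, Opa1-/- library 3 or any reconstituted library, with adjusted p from 0.0647 to 0.0865. Dhodh, the pyrimidine enzyme of the inner membrane and the one gene of this list that fell, was at 10.1 ± 0.483 against 11.5 ± 0.552 TPM (-0.18, adjusted p = 0.0341). With chromosome medians removed it was at 0.01 (adjusted p = 0.895), and when 1 library was left out it passed only without Opa1-/- library 4.

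Complex III, which takes electrons from the reduced lipid, had 5 of 9 nuclear genes higher and none lower. The median was 0.13, beside the same 16.2% and 16.9%. The list held no gene of the mitochondrial chromosome, where the median difference was -0.70 over 28 genes, so these counts cover the nuclear genes only. Uqcrq was at 236 ± 24.2 against 153 ± 5.45 TPM (0.61, limma-trend adjusted p = 0.000317), and Uqcr11 rose by 0.30 (adjusted p = 0.00904). Uqcr10 rose by 0.24 (adjusted p = 0.0207), with 0.0609 and 0.0522 without reconstituted library 1 and 3. Cyc1, cytochrome c1, rose by 0.16 (adjusted p = 0.0120), and was at 0.07 with adjusted p = 0.154 once the trend with exon length and GC content was removed.

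The genes whose levels followed Coq2 most closely over the 8 libraries, among 7990 genes at 10 TPM or more, were Mgst3, Prrg2, Ethe1, Rbbp9 and Ube2e3, with Pearson's r from 0.9897 to 0.994. All 5 were higher in every Opa1-/- library than in any reconstituted one, so these r values largely restate the difference between the groups and are given as a description. Ethe1, a mitochondrial sulfur dioxygenase, was at 24.7 ± 1.39 against 17.8 ± 0.320 TPM, and Mgst3, a membrane glutathione transferase, at 134 ± 9.90 against 95.2 ± 4.51 TPM.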

How the data were processed

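Per the labels' protocols, Qiagen's RNeasy Plus gave the RNA and NEBNext Ultra II the libraries. The submitters' processing notes name STAR 2.5.2b, Subread 1.5.2, featureCounts and bcl2fastq 2.17, with the builds GRCh38 and mm10 and no role for either. The strand setting and the gene lengths behind the TPM are not given in the sources used here. The authors deposited TPM for 49315 genes in each of 8 libraries, per the file headers, and each file sums to 1000000.

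Libraries were scaled by an unweighted trimmed mean of log ratios to their average (each end trimmed by 30% for ratios and 5% for levels) over the 14272 genes that reached 1 TPM in 4 or more libraries. limma-trend (limma 3.58.1, R 4.3.3) was fitted to log2(scaled TPM + 1) of those genes, two-sided, with no covariates. Positions and exon lengths are from GENCODE M21 on GRCm38, with 49056 identifiers found; Fdx2 is named Fdx1l in the files. Reads were recovered from TPM times exon length, of which 96.7% to 97.1% of low values were whole within 0.05 of a read. No 2 libraries agreed within sampling noise (lowest chi-square per degree of freedom 4.73).

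Deviations of same-numbered libraries from their group means correlated at 0.119 to 0.317 across genes, and those of differently numbered libraries at -0.320 to 0.114. Each of the 8 libraries was closest to its own number. For reconstituted library 4 the margin was small, 0.119 with Opa1-/- library 4 against 0.114 with Opa1-/- library 3. The numbers were therefore taken to pair the libraries in the replicate block and in the permutation within pairs. The main fit, and the calls and intervals from it, leave this pairing out. It comes from the data, not the labels. On simulated data, 50 genes were changed at each of 1.25-, 1.5-, 2- and 4-fold among 14022 tested, with independent noise. There the procedure recovered 52% of changes of 1.25-fold and 82% of those of 1.5-fold, and 13 of 177 calls were false. Far more genes were called here (33.0%) and same-numbered libraries deviated together, so these rates may not hold for this comparison. A gene that did not pass may still differ by a small amount. The members, lists and tests were chosen with earlier results of these data known. Named genes were the 10 members, Opa1, up to 4 called genes of each list with the largest difference, and the 5 genes most like Coq2; Ggps1, Dhodh and genes overlapping a member were added after their values were seen. Ratios were tested with scipy 1.17.1 in Python 3.11.15. Alternatives were other scalings, pseudocount and filters, the replicate block, each library left out, both libraries numbered 3 left out, exon length and GC trends or chromosome medians removed, and limma-voom on recovered reads.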

Additional observations from a re-analysis of the deposited data

Results flagged for a closer look

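Among 70 sets of 4 libraries checked for one standing apart (each named gene in each group), 1 was found, and chance flags about 1 set in 20. It was Opa1 in the reconstituted libraries, where library 1 was at 15.6 TPM and the others at 14.5 to 14.6 TPM. None of the coenzyme Q genes was among them.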

How the results depend on the processing

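Of 21 alternatives, 1 (scaling over all genes above 0 in every library) was chosen after seeing the data, as was the permutation within pairs for the ratios; under that scaling Pdss2 was at adjusted p = 0.0534. The one sign change among the named genes was Dhodh, at 0.0123 with chromosome medians removed. The members called higher numbered 4, with 2 on the deposited TPM and 2 without both libraries numbered 3, and 2 to 4 when 1 library was left out; those called lower numbered 0 to 1 then. Of 47 other pathway genes tested, 17 were called higher and 9 lower, beside 16.2% and 16.9% of all genes. Those called higher numbered 11 without a filter on low values and 9 without both libraries numbered 3. They numbered 11 with chromosome medians removed and 10 to 16 with 1 library left out. Those called lower numbered 8 to 12 over the alternatives. Over all genes, 2408 were called lower, with 1529 on the deposited TPM and 1603 with chromosome medians removed. With 1 library left out, 1720 to 2585 were called higher and 1801 to 2710 lower. With the replicate number as a block, 5 members were called higher, beside 2335 of all 14272 genes tested. Beyond Coq9, Coq10a and Prodh the block changed no other call among 34 single genes. The causes were not tested. Coq8a rests on 29 to 68 recovered reads per library, so its level is the least precise of the 10 by counting.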
